A study of Mus musculus with 4 samples.

Results

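The 9 genes described here code for transcription factors of the endoderm and foregut and were read in mouse embryos at E8.5 and E10.5 (E, embryonic day): *Foxa1*, *Foxa2*, *Foxa3*, *Nkx2-1*, *Sox17*, *Hhex*, *Pdx1*, *Hnf4a* and *Onecut1*. They were taken by gene name from the array annotation, in which 15 of 56604 probes carry these 9 of 37074 names. Whole C57BL/6 embryos gave the RNA of 4 groups, which were wild type (WT) at E8.5, the embryos labelled *Dyrk2*-/- at E8.5, WT at E10.5 and the embryos labelled *Dyrk2*-/- at E10.5. The mutant alleles were small deletions made with a Cas9 nickase, and the homozygotes came from crosses of heterozygous mice. Each group was 1 array with 1 dye (Cy3), all on 1 slide, and the sources used here give neither the number of embryos behind an RNA nor which deletion an array holds.

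The definitive endoderm lines the primitive gut, and its foregut part buds into thyroid, lung, liver and pancreas. FOXA proteins are pioneer factors that bind their sites in closed chromatin and make way for other regulators, SOX17 specifies early endoderm, and HHEX, HNF4A, ONECUT1, PDX1 and NKX2-1 each mark or direct particular organ buds. Several of these genes also act elsewhere: *Foxa2* in notochord and floor plate, *Nkx2-1* in the ventral forebrain, *Sox17* in endothelium, *Onecut1* in developing neurons, and *Hnf4a*, *Hhex* and *Foxa2* in the visceral endoderm that covers the yolk sac. In RNA of whole embryos, fewer cells of a type and less RNA per cell cannot be told apart.

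Values are log2 signals of a probe relative to the 75th percentile of its array, so that 0 is the level that 25% of probes exceed. They compare arrays for the same probe and do not compare probes with each other. A gene was read at its brightest probe, differences of 1.5-fold or more were called, and a gene entered a comparison if the scanner software had marked that probe as well above background on either array. Where it was so on only 1 array, the fold is given as a bound ("at least"), and a probe marked on none is called undetected. A bound holds for this processing only, and another background correction can give a smaller ratio. On the 4 arrays 55.4%, 53.4%, 56.2% and 56.4% of probes were well above background, in the order WT and *Dyrk2*-/- at E8.5 and then at E10.5. Probes printed several times on an array had a median SD between spots of 0.09, 0.12, 0.07 and 0.08 (log2). That spread leaves out the difference between embryos, and with 1 array per group no difference between genotypes at a stage has a replicate check or a p-value.

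*Dyrk2* itself was measured before anything else. Its brightest probe read 0.06 in WT against 0.76 in *Dyrk2*-/- at E8.5 and −0.31 against 0.34 at E10.5. On the arrays labelled *Dyrk2*-/- the signal was therefore the higher one, by 1.62-fold and 1.57-fold, and that of a second probe by 1.02-fold and 1.21-fold. The *Dyrk2* call at E8.5 was lost with the spike-ins and without scaling, and that at E10.5 without scaling. A small deletion need not lower the transcript and the probes may lie outside it, so these values do not check the labels, and every direction between genotypes below rests on them. The E10.5 pair also differed in sex-linked transcripts, named here after their values were seen. *Xist*, the RNA of the inactive X chromosome, was higher by at least 20.4-fold in the E10.5 embryos labelled *Dyrk2*-/-, and the Y-linked *Eif2s3y* was lower by at least 43.2-fold there. The stage comparison on the *Dyrk2*-/- arrays and the limma model below include that array and so the same difference. None of the 9 genes lies on a sex chromosome.

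Between the stages, most of the 9 genes were lower at E10.5, while *Onecut1* and *Nkx2-1* were far higher. On the WT arrays 7 were 1.5-fold or more lower, against 17.5% of all genes, and 2 were higher, against 18.8%. On the arrays labelled *Dyrk2*-/-, 4 of 8 measured genes were lower (13.9% of all genes) and 2 higher (17.6%). Between the genotypes fewer genes were called. At E8.5, 3 of 8 measured genes, *Foxa2*, *Hnf4a* and *Hhex*, were 1.5-fold or more lower on the array labelled *Dyrk2*-/-, where 6.5% of all genes were, and 0 were higher, where 5.14% were. At E10.5, 1 of 7 measured genes, *Nkx2-1*, was lower (4.22% of all genes) and 0 were higher (3.5%). The genes were chosen with earlier results of these arrays known, so these counts describe the arrays and are not independent evidence of a direction.

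**Figure D1:**
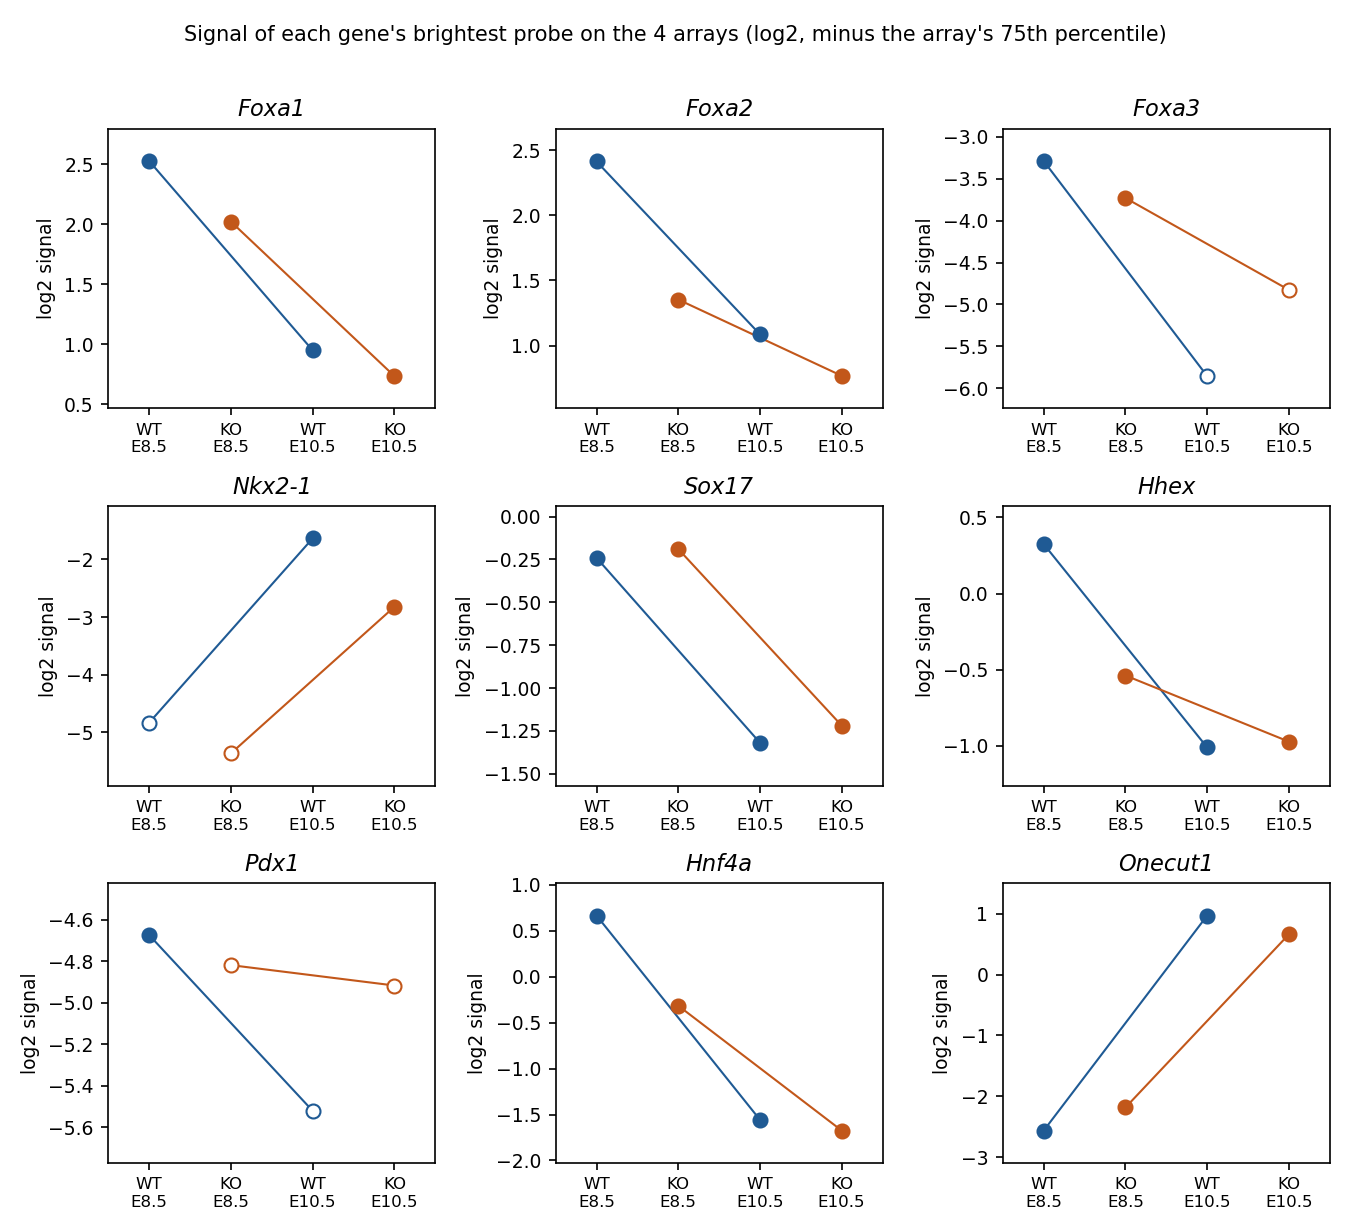
Log2 signal of the brightest probe of each of the 9 genes (relative to the array's 75th percentile, vertical axis, own scale in each panel) on the 4 arrays, with WT in blue and the arrays labelled *Dyrk2*-/- (KO) in orange. Each point is 1 array, open points are not well above background, and lines join the stages of a genotype. In the scaling shown, *Onecut1* and *Nkx2-1* slope up and the other 7 slope down. With spike-in scaling *Foxa2* and *Hhex* do not slope down on the KO arrays. *Pdx1*, not well above background on either KO array, differed by only −0.10 there, and its slope was not recomputed.

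*Foxa1*, which shares targets with *Foxa2* across the gut endoderm, has 1 probe (chr12:58641764-58641823, mm9). It read 2.52 in WT against 2.02 in *Dyrk2*-/- at E8.5 and 0.95 against 0.73 at E10.5. Both E8.5 arrays were thus above both E10.5 arrays, and within each stage the array labelled *Dyrk2*-/- was the lower. Between stages the signal was 2.98-fold lower in WT and 2.44-fold lower on the *Dyrk2*-/- arrays. Between genotypes it was 1.42-fold lower at E8.5 and 1.16-fold lower at E10.5, both under the 1.5-fold threshold.

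*Foxa2*, required for the node, notochord and foregut, also has 1 probe (chr2:147868669-147868728, mm9), which read 2.41, 1.35, 1.09 and 0.77 in the same order. The WT E8.5 array stood above the remaining 3. The difference between genotypes was 2.08-fold at E8.5 and 1.25-fold at E10.5, lower on the array labelled *Dyrk2*-/- each time. In WT the signal was 2.51-fold lower at E10.5 than at E8.5. On the *Dyrk2*-/- arrays the log2 ratio between stages was −0.58, just short of the 1.5-fold threshold.

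*Foxa3*, the FOXA gene of liver and gut epithelium, was dim throughout, at −3.29 and −3.73 at E8.5 (chr7:19599053-19599112, mm9). At E10.5 its values of −5.86 and −4.83 were not well above background on either array. It was at least 2.69-fold lower at E10.5 in WT and at least 2.06-fold lower on the *Dyrk2*-/- arrays. At E8.5 the genotypes differed by 1.36-fold, lower on the *Dyrk2*-/- array, and at E10.5 no fold could be given. The 3 *Foxa* genes thus had the same order at E8.5, with WT above *Dyrk2*-/-, and *Foxa2* alone of them passed 1.5-fold. With the spike-ins (−1.05 and −0.99) and without scaling (−0.76 and −0.70) *Foxa1* and *Foxa3* passed it as well. Of all genes 47.6% and 15.3% were 1.5-fold or more lower under these 2 scalings.

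*Sox17*, which directs early endoderm and later marks arterial endothelium, has 3 probes. The brightest (chr1:4481890-4481949, mm9) read −0.24 in WT against −0.19 in *Dyrk2*-/- at E8.5 and −1.32 against −1.22 at E10.5. A second read −3.25, −3.21, −4.48 and −4.53, and the third was undetected on all 4 arrays. Both measured probes differed between the stages and little between the genotypes. Between stages the brightest was 2.11-fold lower in WT and 2.04-fold lower on the *Dyrk2*-/- arrays, and the second 2.34-fold and 2.50-fold. Between genotypes the brightest differed by 1.04-fold at E8.5 and 1.07-fold at E10.5, and the second by 1.03-fold each time.

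*Hhex*, a homeobox gene of the anterior endoderm, liver bud and thyroid, has 1 probe (chr19:37514969-37515028, mm9), which read 0.32, −0.54, −1.01 and −0.97. The WT E8.5 array was the highest, and the E10.5 arrays lay close together. At E8.5 the signal of the *Dyrk2*-/- array was 1.82-fold lower, and at E10.5 it was 1.03-fold higher. From E8.5 to E10.5 it was 2.52-fold lower in WT and 1.35-fold lower on the *Dyrk2*-/- arrays. Whether the genotype difference changed between the stages was not tested, since each group has 1 array.

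*Hnf4a*, the nuclear receptor that drives hepatocyte and visceral endoderm differentiation, gave 0.67 in WT against −0.32 in *Dyrk2*-/- at E8.5 at its brightest probe (chr2:163398548-163398607, mm9). At E10.5 it gave −1.56 and −1.67. The genotypes were 1.97-fold apart at E8.5, with *Dyrk2*-/- the lower, and 1.08-fold apart at E10.5. Between stages the signal was 4.67-fold lower in WT and 2.57-fold lower on the *Dyrk2*-/- arrays. The other *Hnf4a* probe was undetected on all 4 arrays, so the gene was read at 1 probe.

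*Onecut1* (HNF6), which acts upstream of liver and pancreas genes and also in motor neurons and other neurons, has 2 probes well above background on all 4 arrays. The brighter (chr9:74737402-74737461, mm9) read −2.56 in WT against −2.18 in *Dyrk2*-/- at E8.5 and 0.97 against 0.66 at E10.5. The other (chr9:74737272-74737331) read −3.40, −2.97, 0.38 and −0.10. Both placed the E10.5 arrays far above the E8.5 arrays, by 11.6-fold and 13.7-fold in WT and by 7.19-fold and 7.29-fold on the *Dyrk2*-/- arrays. Between genotypes both were higher on the *Dyrk2*-/- array at E8.5, by 1.30-fold and 1.35-fold, and lower at E10.5, by 1.24-fold and 1.39-fold. All 4 of these ratios were under the threshold.

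*Nkx2-1*, the homeobox gene of lung, thyroid and ventral forebrain, was not well above background at E8.5, where its brighter probe (chr12:57633119-57633178, mm9) read −4.83 and −5.36. At E10.5 it read −1.63 in WT against −2.82 in *Dyrk2*-/-. It was therefore higher at E10.5, by at least 9.10-fold in WT and at least 3.26-fold on the *Dyrk2*-/- arrays. At E10.5 it was lower by 2.28-fold on the array labelled *Dyrk2*-/-. A further probe (chr12:57634028-57634087) was undetected on all 4 arrays, so this difference rests on 1 probe.

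*Pdx1*, the homeobox gene of the pancreas and duodenum, was at the edge of detection. Of its 2 probes, the brighter (chr5:148087315-148087374, mm9) was well above background on the WT E8.5 array alone, at −4.68, and read −4.82, −5.52 and −4.92 on the other 3. The bound on its difference between the stages in WT was 1.03-fold, so that its call there is not supported once the background is taken into account. With the bound applied, 6 and not 7 genes were 1.5-fold or more lower in WT. Of the 6 genes well above background on both WT arrays, 5 were lower and 1, *Onecut1*, was higher.

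**Figure D2:**
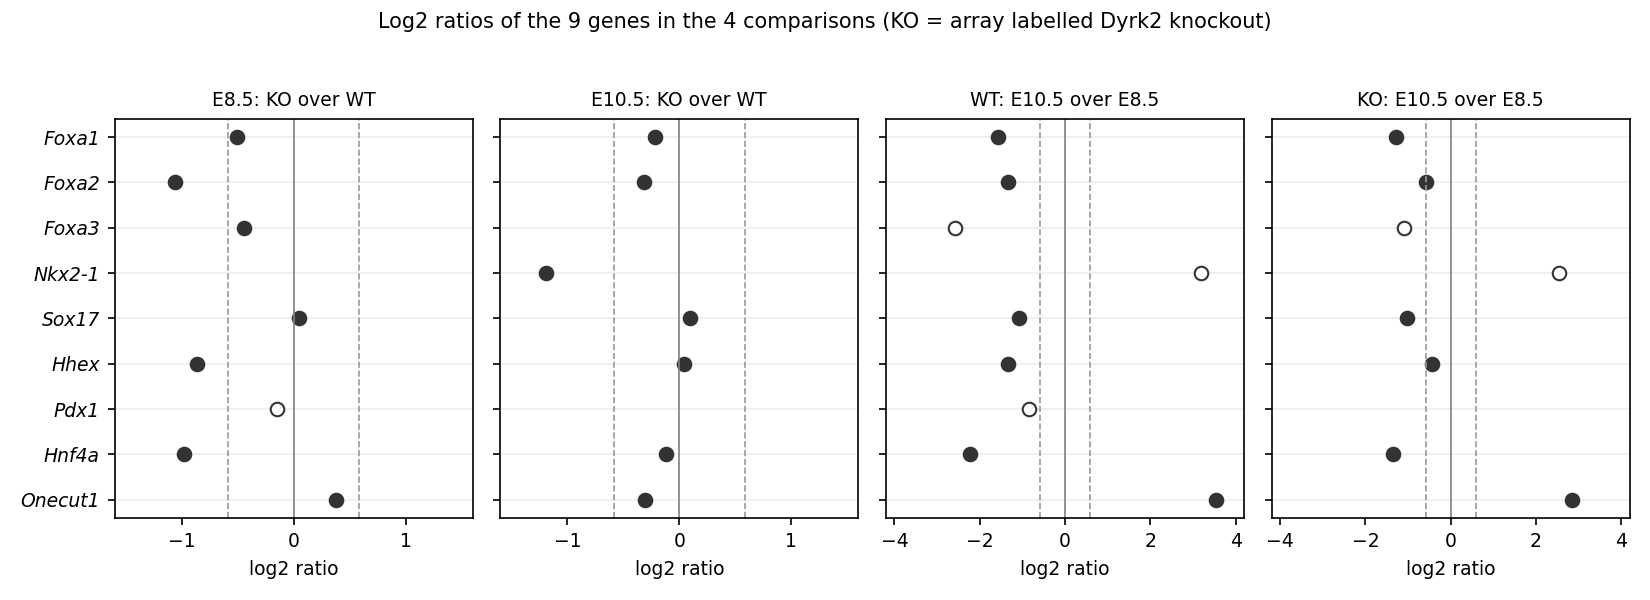
Log2 ratios (horizontal axes) of the 9 genes in the 4 comparisons, between genotypes on the left and between stages on the right. Filled points were well above background on both arrays and open points on 1 of them; dashed lines mark 1.5-fold, which *Foxa2*, *Hhex* and *Hnf4a* pass at E8.5 and *Nkx2-1* at E10.5.

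A limma model over the 4 arrays tested the stages with both genotypes together. It had genotype and embryonic day as terms and 1 residual degree of freedom. Since no group has a replicate, that degree of freedom came from how far the WT and *Dyrk2*-/- stage differences lay apart. The variance borrowed from other probes weighed as 8.07 prior degrees of freedom against this 1. The p-values of this model therefore do not measure variation between embryos of the same group. The 6 genes well above background on all 4 arrays each passed an adjusted p under 0.05 for the embryonic day, 5 lower and 1 higher at E10.5, where 20.5% of all genes were called lower and 17.2% higher (21.3% and 15.4% of the genes well above background on all 4 arrays). *Nkx2-1* and *Foxa3* entered the model only through the stage at which they were high, so their p is not given as a test, and *Pdx1* was too dim to enter. *Onecut1* rose by 3.19 (log2, SE 0.19, adjusted p = 4.14e-06). *Nkx2-1*, undetected at E8.5, was higher by at least 5.45-fold over both genotypes, and *Foxa3*, undetected at E10.5, lower by at least 2.35-fold. With a normexp background correction the log2 estimates of *Nkx2-1* and *Foxa3* were 0.91 and −0.62, smaller than these bounds. *Hnf4a* fell by 1.79 (SE 0.21, adjusted p = 0.000217), *Foxa1* by 1.43 (SE 0.13, adjusted p = 6.42e-05) and *Sox17* by 1.05 (SE 0.15, adjusted p = 0.000695). *Foxa2* fell by 0.96 (SE 0.18, adjusted p = 0.00306) and *Hhex* by 0.88 (SE 0.21, adjusted p = 0.0103). In the main scaling each of these directions was seen in both genotypes. On the *Dyrk2*-/- arrays alone, the falls of *Foxa2* (−0.58) and *Hhex* (−0.43) were under 1.5-fold. With the spike-in scaling only *Onecut1* of the 6 passed, where 2.01% of all genes were called lower and 7.21% higher. The estimates of the other 5 over both genotypes were still below 0 there, from −0.60 (*Hhex*) to −1.51 (*Hnf4a*). On the *Dyrk2*-/- arrays alone, *Foxa2* and *Hhex* were not lower under that scaling (0.05 and 0.20). Without the intensity trend *Foxa2* (adjusted p = 0.0623) and *Hhex* (adjusted p = 0.0914) did not pass. Over all alternatives the adjusted p of *Foxa2* ran from 2.78e-13 to 0.911 and that of *Hhex* from 6.34e-07 to 0.898. The low ends came without the filter on dim probes and the high ends with the spike-ins. In both of these fits a gene's own variance carried no weight.

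For the genotype over both stages the same limma model called 0 of the 8 genes, against 0.0191% of all genes called higher and 0.00957% called lower. At an unadjusted p under 0.05 were 4 genes, *Foxa1*, *Foxa2*, *Hnf4a* and *Nkx2-1*, and 5.68% of all genes. *Foxa2* had the smallest p, with a log2 difference of −0.69 (SE 0.18, adjusted p = 0.516), lower at both stages. *Nkx2-1* had −0.86 (SE 0.31, adjusted p = 0.915), which includes E8.5 values below background. *Sox17* had 0.08 (SE 0.15, adjusted p = 1).

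All of these ratios are relative to the other probes of an array, and the choice of scaling moved them. Scaling by spike-in control probes shifted the median log2 ratio of all genes from −0.02 to −0.57 for the E8.5 pair and from 0.00 to 0.16 for the E10.5 pair. Under it 6 of the 8 measured genes were lower by 1.5-fold or more at E8.5, together with 47.6% of all genes, while 1.4% were higher. Such a scaling moves all ratios of a pair alike, so the median of the 9 genes lay −0.45 from that of all genes by construction. With the normexp background correction, which does not, it lay −0.29 from it. *Foxa1*, *Foxa2*, *Foxa3*, *Hhex* and *Hnf4a* were lower on the E8.5 array labelled *Dyrk2*-/- under every scaling tried, though *Foxa3* by only 0.01 after the normexp background correction. *Onecut1* turned from higher to lower there with the spike-ins, *Sox17* with the spike-ins (−0.50), without scaling (−0.20) and with normexp (−0.01), and *Pdx1* from lower to higher with normexp (0.11). At E10.5 *Nkx2-1*, *Foxa1*, *Foxa2* and *Onecut1* were lower under every scaling tried, while the small ratios of *Sox17*, *Hhex* and *Hnf4a* changed sign under at least 1 of them. The ratio of *Nkx2-1*, −1.19 in the main scaling, was −0.65 with normexp, just past 1.5-fold.

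Without any scaling, 15.3% of all genes were lower and 2.45% higher at E8.5, and 6.54% lower and 2.65% higher at E10.5. The spike-ins gave 2.59% lower and 5.84% higher at E10.5, and a normexp background correction 0.684% and 0.868%. Between the stages in WT, 11.9% were lower and 24.2% higher without scaling. On the *Dyrk2*-/- arrays 7.29% were lower and 28.3% higher without scaling, and 4.61% and 50.1% with the spike-ins, which shifted the median of all genes there to 0.59. With the spike-ins the stage ratios of *Foxa2* and *Hhex* on these arrays became 0.05 and 0.20, while in WT both were 1.5-fold or more lower under each scaling. *Sox17* and *Foxa3* lost their calls on these arrays with the spike-ins, at −0.39 and −0.46, and *Foxa3* also with normexp, at −0.55. In WT the normexp stage ratio of *Foxa3* was −0.69, still past 1.5-fold but smaller than the bound given above. With normexp the stage ratio of *Nkx2-1* was 1.27 in WT and 0.55 on the *Dyrk2*-/- arrays, where its call was lost. Both were smaller than the bounds given above, which are 3.19 and 1.71 on the log2 scale. The stage ratio of *Onecut1*, 3.53 in WT and 2.85 on the *Dyrk2*-/- arrays, became 2.64 and 2.04 with normexp. With the spike-ins it was 3.48 on the *Dyrk2*-/- arrays.

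The wider endoderm program was described with lists of genes. Counts of a list with the spike-ins are to be read beside the 47.6% of all genes lower at E8.5, and the 50.1% higher between stages on the *Dyrk2*-/- arrays, under that scaling. Of 30 other transcription factors of endoderm and gut, 24 were measured at E8.5, of which the array labelled *Dyrk2*-/- had 5 lower by 1.5-fold or more and 0 higher. The median log2 ratio was −0.22, against −0.02 for all genes. *Cdx1*, of the hindgut and tail bud, was 2.19-fold lower (4.67 in WT and 3.54 on the *Dyrk2*-/- array), and *Gsc*, of the anterior mesendoderm, 2.12-fold lower (−2.27 and −3.36). *Sox9* gave 1.65-fold less signal at its brightest probe and was 1.11-fold higher at another, and *Nr5a2* was 1.51-fold lower. The fifth, *Mixl1*, had a bound of only 1.16-fold and is named after its values were seen. At E10.5 *Cdx1* was 1.49-fold higher on the array labelled *Dyrk2*-/-, short of the threshold.

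At E10.5, 26 of the 30 were measured, with 5 lower, 0 higher and a median of −0.28 against 0.00 for all genes. *Gsc* was again lower, by 2.03-fold (−0.48 and −1.51), *Onecut3* by 1.76-fold, *Eomes* by 1.75-fold and *Cdx2*, the intestinal homeobox gene, by 1.64-fold. Under the spike-in scaling this median became −0.77 in the E8.5 pair and −0.11 in the E10.5 pair. The counts moved as well: at E8.5, 18 were lower with the spike-ins, 10 without scaling and 2 with normexp, and at E10.5, 4, 6 and 1, with 1 higher under the spike-ins. In both stages the sign of the list's median was thus that of the 9 genes, whose own medians were −0.47 and −0.21. Between stages the list went both ways, with 9 higher and 12 lower in WT (median 0.15) and 10 higher and 9 lower on the *Dyrk2*-/- arrays (median 0.11).

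Secreted signals that pattern the endoderm, and their modulators, formed a list of 18 genes. Of these 16 were measured at E8.5, 2 lower and 1 higher, where 6.5% and 5.14% of all genes were, with a median of −0.19. With the spike-ins 11 were lower and 1 higher. *Tdgf1*, the Nodal co-receptor, was 2.52-fold lower at its brightest probe, while 2 others gave log2 ratios of −0.30 and 0.53. The Wnt antagonist *Dkk1* was 1.54-fold lower and *Cer1*, an antagonist of Nodal, BMP and Wnt, was 2.34-fold higher (−2.73 in WT and −1.51 on the *Dyrk2*-/- array). At E10.5, 17 were measured, 1 was lower (*Fgf4*, 1.80-fold) and the median was 0.02. With normexp 0 were called and the median was −0.03. Without scaling 2 were lower, with a median of −0.11.

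Products of differentiated endoderm organs were in part undetected on these arrays. Of 20 such genes, 7 were undetected on all 4 arrays, among them the lung genes *Sftpc*, *Sftpb* and *Scgb1a1* and the islet genes *Ins1* and *Iapp*. At E8.5, 12 were measured, 3 lower and 2 higher, with a median of −0.07. With the spike-ins these counts were 8 and 0 (median −0.61), without scaling 3 and 0, and with normexp 1 and 0. Lower were *Fgb* (1.95-fold), *Fabp2* (1.94-fold) and *Vil1* (1.56-fold), and higher *Gcg* (1.66-fold, at 1 of 2 probes, the other being undetected at E8.5) and *Fabp1* (1.52-fold, named after its values were seen). At E10.5, 11 were measured and 1, *Tg*, also named after its values were seen, was at least 1.62-fold lower, with a median of −0.17. That call was lost with the spike-ins, where 0 were lower and 1 higher, and with normexp, where 0 were called. Without scaling 2 were lower.

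Of 12 epithelial genes shared by endoderm and surface ectoderm, 0 were called between the genotypes at either stage, with medians of 0.03 and 0.15. With the spike-ins 5 were lower at E8.5 (median −0.52, against −0.57 for all genes) and 2 higher at E10.5 (median 0.31, against 0.16). Between the stages all 12 were 1.5-fold or more lower at E10.5 in both genotypes, with medians of −1.87 in WT and −1.64 on the *Dyrk2*-/- arrays, against −0.08 and −0.05 for all genes. The other scalings gave 11 or 12 lower. Among them *Cdh1*, the cadherin of epithelia and named after its values were seen, read 1.35, 1.05, −0.63 and −0.49. The lower level of 6 of the 9 genes at E10.5 therefore stood beside a lower level of epithelial genes in the same RNA, and the part of one in the other was not tested.

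Markers of other cells that express the 9 genes were set beside them. At E8.5 all 13 markers of the yolk sac endoderm were well above background and the array labelled *Dyrk2*-/- had 8 of them lower by 1.5-fold or more. The median log2 ratio was −0.63. Their summed signal, in multiples of the array's 75th percentile, was 78.4 in WT against 51.3 in *Dyrk2*-/- at the earlier stage and 28.6 against 24.2 at the later. With the spike-ins and without scaling all 13 were lower at E8.5, and with normexp 6. *Rhox5* was 1.86-fold lower at E8.5 and 1.84-fold at its other probe, and *Amn* (1.75-fold), *Cubn* (1.72-fold) and *Fgg* (1.71-fold) were lower as well. *Amn* and *Cubn* form the endocytic receptor of visceral endoderm. At E10.5, 0 of 12 were called, with a median of −0.28. Between stages 11 of 13 were lower in WT (median −3.19) and 10 of 13 on the *Dyrk2*-/- arrays (median −2.66), and these counts were the same under each scaling. Most yolk sac markers were thus lower at E8.5, as were *Foxa2*, *Hhex* and *Hnf4a*, and their part in those differences and in the differences between stages was not tested.

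Markers of primitive erythroid cells differed in the other direction and by far more. On the E8.5 array labelled *Dyrk2*-/- all 11 were higher by 1.5-fold or more, and their median log2 ratio was 4.84, or 4.27 with bounds. At E10.5 this held for 7 of 11, with a median of 1.11. Their summed signal was 17.3 in WT against 384 in *Dyrk2*-/- at the earlier stage and 1380 against 1600 at the later. *Hbb-y* read 0.15 in WT against 6.15 in *Dyrk2*-/- at E8.5, and at E10.5 *Klf1* was 2.50-fold higher, *Gata1* 2.35-fold and *Alas2* 2.31-fold. Between the stages in WT all 11 were higher as well. The E8.5 arrays thus differ widely in erythroid transcripts, and their part in the differences of the endoderm genes was not tested. Whether the E8.5 embryos of the groups were matched in stage and dissection could not be tested with these arrays, and each genotype difference at E8.5 is given with that limit.

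For *Foxa2*, the midline is a further source. Of 10 markers of floor plate and notochord, 9 were measured at E8.5, with 1 lower (*Foxj1*, 1.76-fold), 0 higher and a median of −0.06. The summed signal was 9.94 in WT and 9.04 on the *Dyrk2*-/- array, and *Chrd* was undetected on all 4 arrays. At E10.5, 1 of 8 was lower, *T* by 2.81-fold (−2.25 in WT and −3.74 on the *Dyrk2*-/- array), with a median of −0.30 and sums of 7.17 and 5.59. With the spike-ins 5 were lower at E8.5, with a median of −0.60, and with normexp 0 were called there, with a median of 0.05. The part of the midline in the values of *Foxa2* was not tested.

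For *Nkx2-1* at E10.5, the ventral forebrain is a further source. All 10 of its markers were well above background there, 1 was lower (*Otp*, 1.83-fold) and 0 higher, with a median of −0.10. Their summed signal was 13.6 in WT against 11.6 in *Dyrk2*-/-. At E8.5, 9 were measured, with sums of 9.24 and 8.97 and a median of −0.06. The 2 calls there, *Six6* (at least 2.33-fold higher) and *Vax1* (at least 1.34-fold lower, so without support at 1.5-fold), are named after their values were seen. With the spike-ins 5 were lower at E8.5 and the median at E10.5 became 0.06. With normexp 0 were called at E8.5, so that both calls were lost. The part of the forebrain in the values of *Nkx2-1* was not tested.

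For *Onecut1*, motor neurons and neural tissue are further sources. Of 10 motor neuron markers, 8 were 1.5-fold or more higher at E10.5 than at E8.5 in WT and 9 on the *Dyrk2*-/- arrays, or 8 with bounds, with medians of 2.91 and 2.13, and 5 of 7 neural markers were higher in each. The motor neuron sums were 2.44 in WT against 2.27 in *Dyrk2*-/- at the earlier stage and 13.2 against 11 at the later. The neural sums were 11.5, 12.7, 54.9 and 41.6. These increases run beside that of *Onecut1*, and their part in it was not tested.

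Between genotypes the motor neuron markers had a median of 0.08 at E8.5, with *Neurog2* 1.81-fold and *Olig2* 1.75-fold higher and *Chat*, named after its values were seen, at least 1.08-fold lower. With the spike-ins the median was −0.47 and 0 were higher. At E10.5 the median was −0.27, with *Slc18a3* 1.56-fold lower. The neural markers had medians of −0.06 and −0.31, and *Dcx* was 1.51-fold lower at E10.5, with log2 ratios of −1.37 and −0.39 at 2 other probes. The calls of *Slc18a3* and *Dcx* were lost with the spike-ins, and that of *Slc18a3* also with normexp. As for *Onecut1*, the E10.5 medians were below 0, also with the spike-ins (−0.11 and −0.15).

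For *Sox17*, endothelium is a further source. All 12 endothelial markers were well above background on every array, with summed signals of 22.1, 27.5, 28.3 and 26.9. At E8.5, 2 were higher on the *Dyrk2*-/- array, *Cldn5* by 1.85-fold and *Emcn* by 1.53-fold, and 0 lower, with a median of 0.24 that became −0.30 with the spike-ins, where 0 were called. At E10.5, 0 were called and the median was −0.08. Between stages 6 were higher and 1 lower in WT, and 1 higher and 2 lower on the *Dyrk2*-/- arrays, with medians of 0.54 and 0.14. With the spike-ins there were 4 higher and 2 lower in WT, and 7 higher and 0 lower on the *Dyrk2*-/- arrays, where 50.1% of all genes were higher. The part of endothelium in the values of *Sox17* was not tested.

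**Figure D3:**
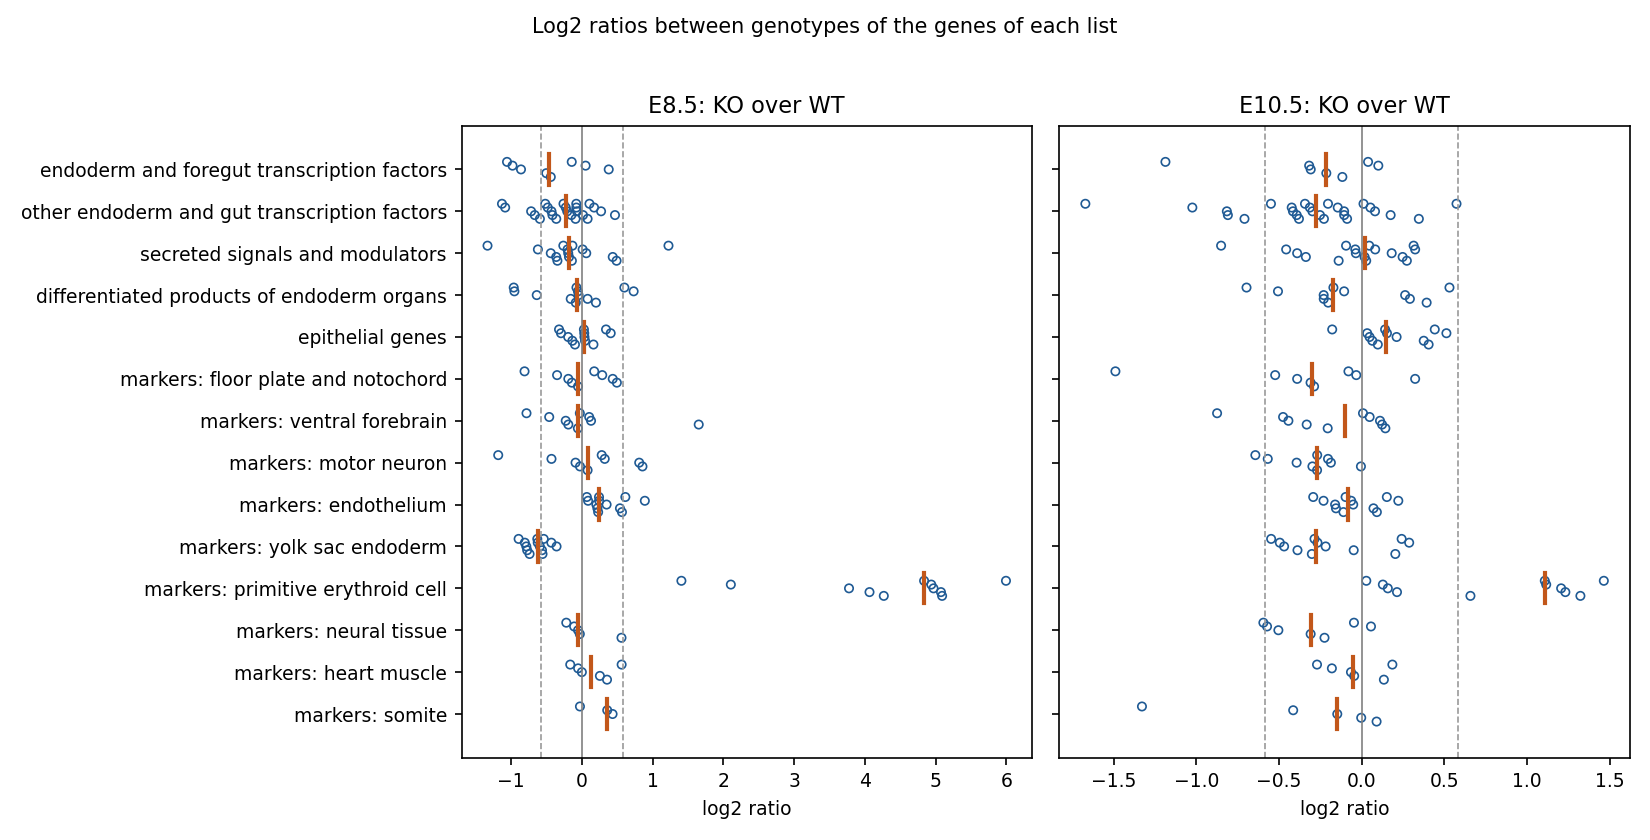
Log2 ratios between the array labelled *Dyrk2*-/- and the WT array (horizontal axes, different scales) at E8.5 and E10.5 for the measured genes of each list. Each circle is 1 gene at its brightest probe, orange bars are medians and dashed lines mark 1.5-fold; at E8.5 the erythroid markers lie far to the right (median 4.84) and the yolk sac markers to the left (median −0.63).

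The genes whose 4 values ran most like those of a member were found by the root mean square (RMS) difference of values centred on each gene's own mean, over 4 arrays and 7947 other genes that were well above background on all of them and spanned at least 1.5-fold. For *Foxa1* these were *Upb1* (RMS 0.03), *Stx3* (0.04) and *Adora1* (0.04). For *Foxa2* they were *B3galt5* (0.12), *Gm26641* (0.12) and a probe without a gene name (0.13). For *Sox17* they were *Gm13157*, *3110057O12Rik* and *Nampt*, within 0.02. *Hhex* ran most like the fibrinogen chain gene *Fgg* (0.06), which is also among the yolk sac markers, then *Hdc* (0.08) and *Plbd1* (0.08). *Hnf4a* ran most like *Efcab10* (0.07), *Igfbp6* (0.08) and *Vstm2b* (0.10), and *Onecut1* like *Ppp1r17* (0.04), *Gm16104* (0.07) and *Rasgef1c* (0.07).

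Among the 6 members measured on all 4 arrays, *Foxa2* and *Hhex* were the closest pair, with an RMS difference of 0.15. Only 3 genes were closer to *Foxa2* than *Hhex* was, and 36 were closer to *Hhex* than *Foxa2* was. *Hnf4a* was closest to *Foxa1* (0.25, with 53 genes closer), and *Onecut1* was at least 2.09 from each of the other 5. With 4 values per gene, such a likeness is a description of these arrays.

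The probe sequences show what part of each transcript was read. No exon annotation was at hand, so coding probes were recognised by an open reading frame that reads as part of the known protein. Both measured *Sox17* probes read as coding sequence and placed the stages in the same order. The 60 bases of the dimmer one span 491 bases of chr1:4482700-4483190 (mm9, minus strand) and so cross an intron. The dimmer probe of *Onecut1* (plus strand) also reads as coding sequence. The probes of *Nkx2-1* (minus strand) and *Hnf4a* (chr2:163378302-163378361, mm9, plus strand) that read as coding are the ones undetected on all 4 arrays, while another probe of the same gene was detected. The 5 probes, each open in at least 1 reading frame, are given 5′ to 3′ as the array files hold them.
*Sox17*, brightest probe: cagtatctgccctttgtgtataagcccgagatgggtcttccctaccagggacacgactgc
*Sox17*, probe across an intron: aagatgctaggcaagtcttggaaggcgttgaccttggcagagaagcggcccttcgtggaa
*Onecut1*, dimmer probe: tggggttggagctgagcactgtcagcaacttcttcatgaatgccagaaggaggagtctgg
*Nkx2-1*, silent probe: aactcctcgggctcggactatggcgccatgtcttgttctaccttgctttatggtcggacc
*Hnf4a*, silent probe: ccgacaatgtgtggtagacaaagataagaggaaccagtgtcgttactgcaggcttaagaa

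Promoter windows of the RefSeq table (GRCm38.p6, 250 bases before to 50 after a gene's start) matched 8 of the 9 genes by symbol, with 11 windows, and *Sox17* had no entry. They were searched on both strands for TGTTTAC, the core that FOXA proteins prefer, since *Foxa* genes are 3 of the 9. It was found in 1 of the 11 windows, that of *Foxa1*, and in 3.65% of all 32851 windows. The match starts 141 bases before the start of *Foxa1* in that table. It is printed in capitals, read as GTAAACA, with 11 bases on each side (chr12:57546235-57546263, minus strand).
*Foxa1* window: tatactgctttGTAAACAaagtgagggcc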

How the data were processed

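Gene expression was measured on 4 Agilent SurePrint G3 mouse 8x60K v3 arrays with 1 dye (Cy3), 1 per group. The values used were the background-subtracted spot intensities in the deposited scanner output, which the authors had not scaled between arrays. Per the file headers these came from Feature Extraction 10.7.1.1, while the submitters' processing notes name 9.5.1.1. A table that the authors deposited as well holds intensities whose 4 columns share 1 distribution, and quantile normalization applied to the scanner output came within a median of 0.00643 (log2, absolute) of it. Spots of the same probe were averaged on the log2 scale with outlier spots left out, and each array was scaled to its 75th percentile.

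A gene was read at its brightest probe. Pairs of arrays were compared for the genes whose probe exceeded its background clearly (the scanner's well-above-background mark) on either of them, and differences of 1.5-fold or more were called, without a test since no group has a replicate. Bounds were computed against the lowest signal well above background on the array concerned. A limma model with genotype and embryonic day as terms (eBayes with an intensity trend, 1 residual degree of freedom, Benjamini-Hochberg adjustment over all probes with that mark on 2 or more arrays, threshold 0.05) used all 4 arrays together. Precision is limited by the number of arrays.

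The 9 genes and the lists were chosen with earlier results of these data known. The lists were other endoderm and gut transcription factors, secreted signals, products of endoderm organs, epithelial genes, the *Dyrk* family, and markers of floor plate and notochord, ventral forebrain, motor neurons, endothelium, yolk sac endoderm, primitive erythroid cells, neural tissue, heart muscle and somites. The other endoderm factors and the motor neuron markers share 3 genes, and the secreted signals and the midline markers share 2. Named were *Dyrk2*, all 9 genes, per list and stage up to 4 called genes with the largest ratio between genotypes among those over background in both groups, and for each of the 9 genes measured on every array the 3 genes with the most similar profile among those that spanned at least 1.5-fold. Other genes are named as chosen after their values were seen. Windows of a RefSeq promoter table were searched for the FOXA core motif.

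The ratios of the 9 genes, the lists' counts and medians, the counts of called genes and the limma results were recomputed with quantile normalization, spike-in scaling (7 of 10 spike-in controls), no scaling, a normexp background correction or the deposited table. The counts of called genes were also recomputed with a stricter or no filter on dim probes, a 2-fold threshold or the mean of a gene's probes, and the limma results with either filter or without the trend. Second probes, summed signals and similar profiles have no alternative. Tests, thresholds and alternatives were set before the array files were read, though with those earlier results known, and the steps were tested on simulated data. The software was R 4.3.3 with the packages limma (3.58.1) and data.table (version 1.17.8), and Python 3.11.15 with numpy 2.4.6, pandas 2.3.3 and matplotlib 3.10.9.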

Additional observations from a re-analysis of the deposited data

Results flagged for a closer look

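The ratio between the genotypes had opposite signs at the stages for *Hhex* and *Onecut1*, which is what brought them here. For *Hhex* the log2 ratio of the array labelled *Dyrk2*-/- to WT went from −0.86 at the earlier to 0.04 at the later stage, a difference of 0.90. For *Onecut1* it went from 0.38 to −0.31, a difference of −0.69, and its second probe had the same signs. These differences were not tested, since each group has 1 array. Without scaling *Hhex* was below 0 at both stages, and with the spike-ins *Onecut1* was.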

How the results depend on the processing

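At E8.5 the array labelled *Dyrk2*-/- had 3 of 8 measured genes lower by 1.5-fold or more (6.5% of all genes). There were 6 with spike-in scaling (47.6% of all genes) and 5 without scaling (15.3%). At a 2-fold threshold there was 1 (*Foxa2*), for which no share of all genes is given. At E10.5, where 1 gene was lower, 3 were called without a filter on dim probes, 1 lower and 2 higher, the added ones being *Foxa3* and *Pdx1*, which are below background on both arrays. For the genotype in limma, where 0 were called, 3 were without scaling (*Foxa2*, *Hhex* and *Hnf4a*), with 2.28% of all genes called lower and 0.402% higher, and 1 without the filter (*Foxa2*), with 0.601% and 0.585%, all 4 calls lower. For the embryonic day, 8 (*Nkx2-1* and *Foxa3* included, which entered only through the stage at which they were high) became 2 (*Nkx2-1* and *Onecut1*, both higher) with spike-in scaling, where the other 6 had log2 estimates of −0.60 to −1.55 and adjusted p of 0.061 to 0.911. For the embryonic day, 2.01% of all genes were called lower and 7.21% higher with spike-in scaling, against 20.5% and 17.2% in the main fit. The cause of these changes was not tested. Under the other alternatives the counts were 2 to 3 at E8.5, 6 to 9 between stages in WT, 4 to 6 on the *Dyrk2*-/- arrays and 6 to 8 for the embryonic day, where *Foxa2* and *Hhex* did not pass without the intensity trend. Of 160 recomputed ratios of single genes, 140 kept their direction and their side of 1.5-fold, 5 came to pass it, 5 no longer passed it (*Pdx1* in WT, *Foxa3* under 2 alternatives, *Nkx2-1* and *Sox17* on the *Dyrk2*-/- arrays, all between stages) and 10 uncalled ones changed sign. Quantile normalization and the deposited table changed none of 32 each. Leaving out an array was not possible, since it would empty a group and leave limma no residual degrees of freedom. Signal over background limits *Pdx1*, *Foxa3* at E10.5 and *Nkx2-1* at E8.5.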

Other observations

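Further lists were read as values only. The 6 heart muscle markers had summed signals of 210 in WT against 219 in *Dyrk2*-/- at the earlier stage and 115 against 117 at the later, with 0 called between genotypes at either stage, but 2 lower at E8.5 with the spike-ins. Of 6 somite markers, 3 were measured at E8.5 with 0 called, and 5 at E10.5, where *Myod1* was 2.51-fold lower on the *Dyrk2*-/- array (−3.42 and −4.75), a call lost with normexp. Their summed signals were 14.3, 17.8, 15.0 and 14.3, with *Myf5* undetected on all 4 arrays. Of the 5 genes of the *Dyrk* family, 4 were measured, while *Dyrk4* was undetected on all 4 arrays. At the brightest probes only *Dyrk2* itself was called between genotypes, higher at both stages. That call was lost at E8.5 with the spike-ins and at both stages without scaling, and the second *Dyrk2* probe was not called. *Dyrk1a*, named after its values were seen, was 1.72-fold lower at E8.5 at a dimmer probe and 1.04-fold lower at another.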
